A study of Homo sapiens with 4 samples.

Results

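TXNIP and its relatives ARRDC1, ARRDC2, ARRDC3 and ARRDC4 are alpha-arrestins, here 5 genes picked by symbol from the 61267 genes of a deposited table of raw RNA sequencing counts. The study exposed SU-DHL-2 cells to Spautin-1 at 10 µM for 36 h or to solvent alone; SU-DHL-2 is an established line from a human diffuse large B-cell lymphoma, with wild-type genotype on its labels. Spautin-1 is known as a small-molecule blocker of USP10 and USP13, a pair of deubiquitinating enzymes. Each group held 2 libraries, all from this 1 cell line, and the exposure time of the solvent group is not listed separately. Separate cultures are not stated for the replicates, and p-values therefore reflect the spread among these 4 samples alone, possibly a technical one.

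Alpha-arrestins are adaptor proteins with an arrestin fold and, in TXNIP and ARRDC1 to ARRDC4, proline-rich PPxY motifs in the tail that recruit ubiquitin ligases of the NEDD4 family to membrane cargo. TXNIP also binds thioredoxin and holds glucose uptake down by promoting the internalisation of the glucose transporter GLUT1, the product of SLC2A1. Transcription of TXNIP and ARRDC4 follows glucose through the Mondo factors MondoA (MLXIP) and ChREBP (MLXIPL), which pair with MLX and bind a carbohydrate response element made of 2 E-box-like parts set 5 bases apart.

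Start-site windows are shown for TXNIP, where the glucose response is known to run through the promoter, for ARRDC3, which rose with it, and for ARRDC4, which had no reads. RefSeq entries (build GRCh38.p14, 250 bases before to 50 after a start site) were found for 5 of the 5 genes, 8 windows in all. In the 3 printed here, capitals mark matches, on either strand, to the paired E-box motif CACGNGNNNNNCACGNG, the full E-box CACGTG, the CCAAT box CCAAT and the forkhead core GTAAACA. A full E-box also fits either part of the paired motif.
TXNIP (chr1:145996530-145996829, minus strand): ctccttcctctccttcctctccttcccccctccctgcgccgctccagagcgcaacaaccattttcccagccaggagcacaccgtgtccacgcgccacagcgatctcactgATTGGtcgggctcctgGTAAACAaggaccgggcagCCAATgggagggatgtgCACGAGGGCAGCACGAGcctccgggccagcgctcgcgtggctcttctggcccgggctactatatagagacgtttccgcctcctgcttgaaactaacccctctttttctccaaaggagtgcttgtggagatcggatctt
ARRDC3 (chr5:91380048-91380347, minus strand, downstream start site): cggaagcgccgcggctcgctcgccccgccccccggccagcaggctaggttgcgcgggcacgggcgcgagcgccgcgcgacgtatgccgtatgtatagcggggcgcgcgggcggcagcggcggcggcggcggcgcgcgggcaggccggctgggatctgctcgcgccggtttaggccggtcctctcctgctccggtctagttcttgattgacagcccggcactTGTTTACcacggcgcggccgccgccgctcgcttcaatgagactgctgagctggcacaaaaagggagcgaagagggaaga
ARRDC4 (chr15:97960453-97960752, plus strand): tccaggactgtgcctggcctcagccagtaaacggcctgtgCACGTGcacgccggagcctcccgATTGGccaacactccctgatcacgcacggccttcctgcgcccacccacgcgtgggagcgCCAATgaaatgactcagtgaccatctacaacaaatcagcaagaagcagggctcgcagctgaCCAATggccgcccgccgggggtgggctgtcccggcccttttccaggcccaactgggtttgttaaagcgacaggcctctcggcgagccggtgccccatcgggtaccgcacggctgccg

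The TXNIP window printed, at the upstream start site, held the paired E-box motif, CACGAGGGCAGCACGAG, from base -88 to -72 before the start site, a match found in 20 of 35116 windows (0.057%). TXNIP was the only one of the 5 genes with this match. Its window also held CCAAT boxes in both orientations, at -140 to -136 and at -105 to -101, with a forkhead core between them at -124 to -118. CCAAT boxes occurred in 34.6% of windows and the forkhead core in 3.42%. The TXNIP window 835 bases downstream held no match to any of these motifs. ARRDC3 carried the forkhead core on the opposite strand at -29 to -23 of its downstream start site, 3220 bases from the 5′ end of the counted gene. The ARRDC3 window at that 5′ end, not printed, held no forkhead core but a CCAAT box at -241 to -237. Of the 5 genes, TXNIP and ARRDC3 were the only ones with a forkhead core in any window. The ARRDC4 window held a full E-box at -210 to -205, present in 7.26% of windows, and 3 CCAAT boxes. ARRDC1 and ARRDC2 windows, not printed, held runs of the GC box GGGCGG, 10 matches in ARRDC1 and 6 at the upstream ARRDC2 start site. GC boxes also occurred in both ARRDC3 windows and in the ARRDC4 window. CCAAT boxes were present in ARRDC1 at -80 to -76 and at the downstream ARRDC2 start site at -93 to -89. The GC box was found in 45.0% of windows. These matches describe letters and do not show that a factor was bound.

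Read depth was similar across the samples, with 34115420 to 38362526 counts per library and 25154 to 25683 genes with at least 1 read. B-cell identity showed in all 7 of 7 listed markers at a mean of 1 CPM or more (counts per 1000000, scaled by TMM), with a summed level of 674 to 764 CPM in vehicle and 992 to 1030 CPM in Spautin-1, and MS4A1, CD22 and BLNK were called higher. Markers of T and NK cells summed to 1.29 to 1.5 CPM in vehicle and 0.960 to 1.27 in Spautin-1, those of myeloid cells to 1.11 to 1.47 and 0.491 to 0.586, and those of erythroid cells, mostly HBB, to 7.80 to 9.32 and 9.12 to 11.2. The stromal and epithelial list summed to 46.2 to 52.5 and 52.0 to 55.4 CPM, nearly all of it EPCAM. No listed marker was at 0 in all 4 libraries, and none of these 19 markers of other cells, 9 of them tested, was called; the part of any marker in the results was not tested. Over genes at 5 CPM or more, the log2 difference between replicates had an SD of 0.298 in vehicle and 0.190 in Spautin-1. Of 18368 genes tested, 4045 were called (adjusted p under 0.05 by edgeR's quasi-likelihood test with Benjamini-Hochberg adjustment). In bulk RNA, a change within every cell and a change in the share of cells that express a gene cannot be told apart.

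A pair of alpha-arrestins rose with Spautin-1, TXNIP 2.43-fold and ARRDC3 2.12-fold. ARRDC1 lay lower and ARRDC2 slightly higher without passing the test, and ARRDC4 had no read in any library. Thus 4 of the 5 genes passed the filter on low counts, 2 were called higher and 0 lower, also by DESeq2 and limma-voom; 1 gene, ARRDC1, was lower at an unadjusted p under 0.05 in the edgeR test. The background is 11.5% of all tested genes called higher, 10.5% lower and 22.0% in either direction. The median log2 fold change of the 4 tested genes was 0.65, against -0.01 over all genes tested, and with 4 genes neither figure sets the family apart.

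**Figure D1:**
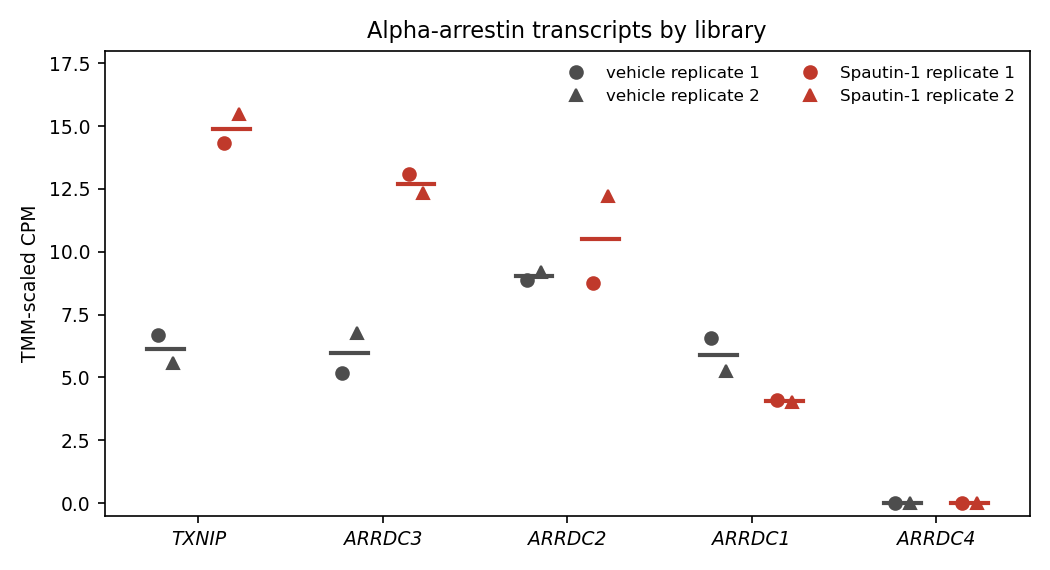
TMM-scaled CPM of the 5 alpha-arrestin genes in each library, with vehicle in grey and Spautin-1 in red, symbols for replicates 1 and 2, and a bar at the mean of the 2. TXNIP and ARRDC3 lie above 12 CPM in both Spautin-1 libraries and below 7 CPM in both vehicle libraries, and ARRDC4 is at 0 throughout.

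TXNIP (chromosome 1, 145992435 to 145996579, minus strand, GRCh38, 3604 exonic bases) stood at 6.68 and 5.59 CPM in the vehicle libraries and at 14.3 and 15.5 CPM in the Spautin-1 libraries. Both treated libraries thus lay well above both controls, and the gap was several times the spread within either group. The counts behind these levels were 232 and 216 reads in vehicle and 538 and 536 reads in Spautin-1. Group means were 6.13 ± 0.770 and 14.9 ± 0.799 CPM (SD, n = 2 each). The log2 fold change was 1.28 ± 0.18 (SE), with a 95% interval of 0.89 to 1.67 and an edgeR adjusted p of 0.000448, larger in size than 91.8% of all changes measured. By its level, TXNIP ranked at the 58.5th percentile of tested genes.

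ARRDC3 (chromosome 5, 91368631 to 91383317, minus strand, 4985 exonic bases) encodes an adaptor known for the ubiquitination and turnover of membrane proteins such as integrin beta4. It measured 5.18 and 6.78 CPM in vehicle and 13.1 and 12.3 CPM in Spautin-1, from 180, 262, 492 and 427 reads. Both treated libraries again lay above both controls, with the wider spread among the controls. Its log2 fold change was 1.09 ± 0.19 (SE; 95% interval 0.67 to 1.51; edgeR adjusted p = 0.00204). ARRDC3 and ARRDC3-AS1, a noncoding gene on the opposite strand, share 145 exonic bases. ARRDC3-AS1 was far lower, at 0.777 and 0.725 CPM in vehicle and 1.17 and 0.953 CPM in Spautin-1, and was not called (log2 fold change 0.50 ± 0.47, edgeR adjusted p = 0.493). The strand setting of the counting is not known here, so reads in shared bases cannot be assigned, and their part in the ARRDC3 change was not tested.

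ARRDC1 (chromosome 9, 137605685 to 137615360, plus strand, 3790 exonic bases) encodes the alpha-arrestin that recruits the ESCRT protein TSG101 to the plasma membrane and drives the budding of small vesicles. Its level was 6.56 and 5.25 CPM in vehicle against 4.10 and 4.01 CPM in Spautin-1. Both treated libraries were below both controls, a pattern that 30.6% of all tested genes showed; 30.8% had both treated libraries above, 61.4% together. The log2 fold change of -0.54 ± 0.23 had a 95% interval of -1.03 to -0.05 and did not pass after adjustment (edgeR adjusted p = 0.108). Without vehicle replicate 2, ARRDC1 was called at -0.69 (edgeR adjusted p = 0.0303), and without vehicle replicate 1 it was at -0.37 (0.326). ARRDC1 shares 35 exonic bases with ARRDC1-AS1 on the opposite strand and 183 with a gene on the same strand that carries an Ensembl identifier alone, so some of its reads may belong to these.

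ARRDC1-AS1, a noncoding gene whose end meets that of ARRDC1 (chromosome 9, 137615326 to 137618906), stood at 4.89 and 6.24 CPM in vehicle and 3.63 and 3.17 CPM in Spautin-1. Its treated libraries too were both below the controls. The log2 fold change of -0.71 ± 0.24 just missed the threshold (edgeR adjusted p = 0.0508). ARRDC1-AS1 was called under 6 other settings, among them upper quartile scaling (edgeR adjusted p = 0.0462) and the filter of 1 CPM in 2 libraries (0.0442). It was not called by DESeq2 (adjusted p = 0.0763), by limma-voom (0.0591) or with the GC offset (edgeR adjusted p = 0.0582). With 1 library left out the log2 fold change ran from -0.88 to -0.52.

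ARRDC2 (chromosome 19, 18001132 to 18014102, plus strand, 4637 exonic bases) had the highest vehicle level, at 8.87 and 9.21 CPM. In Spautin-1 it read 8.74 and 12.2 CPM, so that 1 treated library lay below both controls and the other above. The log2 fold change was 0.21 ± 0.20, with a 95% interval of -0.22 to 0.64 (edgeR adjusted p = 0.486), and it turned to -0.040 without Spautin-1 replicate 2. These 4 libraries therefore bound the change of ARRDC2 without fixing its direction. It shares 442 exonic bases with a gene on the opposite strand that had 0.0259 to 0.318 CPM.

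ARRDC4 (chromosome 15, 97960703 to 97973833, plus strand, 4062 exonic bases), like TXNIP a known Mondo target, had 0 reads in each of the 4 libraries. A count of 0 allows up to 3 reads, which here is 0.0776 to 0.0866 CPM, for counting error only. The gene was therefore not tested, and no statement on its change is possible at this depth. ARRDC5, a sixth member of the family that is not among the 5, was also near the limit, with 0 and 4 reads in vehicle and 1 and 2 reads in Spautin-1.

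**Figure D2:**
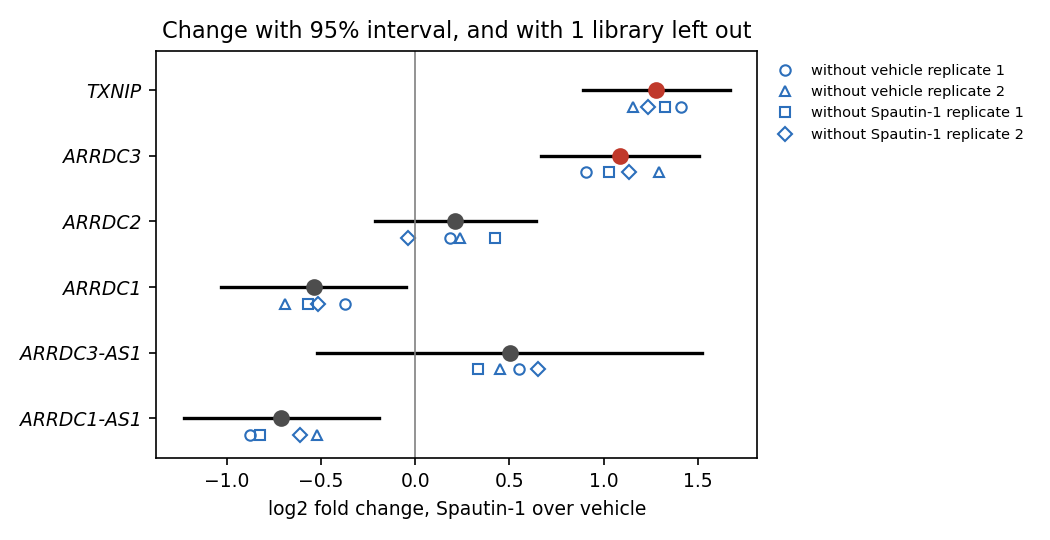
Log2 fold change of Spautin-1 over vehicle for the 4 tested alpha-arrestins and 2 antisense genes. Filled points are the edgeR estimates, red where adjusted p is under 0.05, black lines are 95% intervals, and open blue symbols are the estimates with 1 library left out; TXNIP stays between 1.16 and 1.41 and ARRDC3 between 0.91 and 1.30, while ARRDC2 crosses 0.

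Levels of different genes were compared per length, as TPM, a share of 1000000 transcripts computed from the exonic lengths in the table. In vehicle the order was ARRDC2 at 5.67 ± 0.0258, TXNIP at 4.97 ± 0.779, ARRDC1 at 4.55 ± 0.855, ARRDC3 at 3.48 ± 0.550 and ARRDC4 at 0 TPM (SD, n = 2). Neighbours among the first 3 differed by no more than the spread of TXNIP or ARRDC1. With Spautin-1 the order became TXNIP at 11.0 ± 0.783, ARRDC3 at 6.80 ± 0.180, ARRDC2 at 6.04 ± 1.53, ARRDC1 at 2.85 ± 0.00352 and ARRDC4 at 0 TPM. ARRDC3 and ARRDC2 overlapped between libraries there, while TXNIP lay above the others in both libraries and ARRDC1 below the other 3 genes with reads.

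The summed TPM of the 5 genes was 19.5 and 17.9 in vehicle and 25.2 and 28.2 in Spautin-1, and its make-up differed between the groups. TXNIP gave 28.4% and 24.7% of that sum in vehicle and 41.5% and 41.0% in Spautin-1. The share of ARRDC1 was 26.5% and 22.1% in vehicle and 11.3% and 10.1% in Spautin-1. Within a library, TXNIP stood at 1.07 and 1.12 times the ARRDC1 level in vehicle and at 3.67 and 4.05 times in Spautin-1. The ratio of TXNIP to ARRDC3 overlapped between the groups, at 1.78 and 1.14 in vehicle and 1.51 and 1.74 in Spautin-1. These ratios carry no test, since exact permutation over 2 and 2 libraries reaches p = 0.333 at the lowest.

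**Figure D3:**
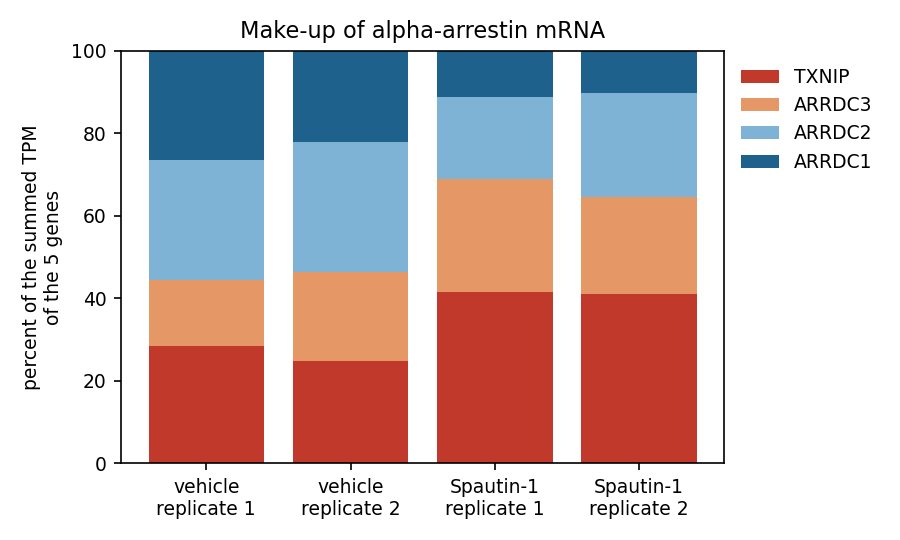
Share of each gene, in percent, in the summed TPM of the 5 alpha-arrestins, 1 stacked bar per library. ARRDC4 adds 0, the TXNIP share is 41.5% and 41.0% in the Spautin-1 libraries against 28.4% and 24.7% in vehicle, and the ARRDC1 share is less than it is in either vehicle library.

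The genes with the most similar profiles over the 4 libraries were taken as the 3 at the smallest Euclidean distance between centred log2 CPM values, among the 9091 or 9092 other genes with a symbol and a mean of at least 5 CPM. With 4 points that hold 1 large contrast, closeness describes these libraries and no more. For TXNIP these were IRF4, a transcription factor of activated B cells and plasma cells, at a distance of 0.040, the sialyltransferase gene ST8SIA4 at 0.061 and the noncoding SNHG15 at 0.062. IRF4 read 34.2 and 28.7 CPM in vehicle and 75.0 and 77.7 CPM in Spautin-1. The nearest to ARRDC3 were TAFAZZIN, which remodels cardiolipin, at 0.042, the glycosyltransferase gene B3GNT7 at 0.097 and the integrin gene ITGB7 at 0.103. For ARRDC1 they were TXNL4B at 0.023, the kinetochore gene KNL1 at 0.038 and CARS1-AS1 at 0.039, and for ARRDC2 the lipid droplet gene PLIN2 at 0.001, IFT22 at 0.044 and POLR2K at 0.056.

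Neighbours on the chromosome were called in both directions or not called. Beside TXNIP, POLR3GL, which encodes a subunit of RNA polymerase III and lies 13.6 kb away, rose (log2 fold change 0.83 ± 0.11, edgeR adjusted p = 0.000283), while ANKRD34A at 27.9 kb gave -0.11 (0.828) and NBPF10 at 68.1 kb 0.15 (0.443). LUCAT1, a noncoding RNA 54.1 kb from ARRDC3, fell from 7.68 to 2.01 CPM (log2 fold change -1.94 ± 0.26, edgeR adjusted p = 0.000326), the opposite direction to ARRDC3. Near ARRDC1, DPH7, an enzyme of diphthamide synthesis 26.8 kb away, rose from 12.0 to 27.4 CPM (edgeR adjusted p = 0.000416), and EHMT1, a histone methyltransferase 3.6 kb away, gave -0.26 (0.142). MAST3, at 83.7 kb from ARRDC2, rose by 1.25 on the log2 scale (edgeR adjusted p = 0.00232). The nearest tested genes with a symbol around ARRDC4 lay over 1 Mb away, and none of the 4 examined there was called.

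Genes tied to alpha-arrestin biology were described as 10 lists, 116 genes in all, of which 97 were tested. Of these 12 were called higher and 13 lower, 25.8% against the background of 22.0%, with a median log2 fold change of 0.00. Many of these calls were lost in a fit without Spautin-1 replicate 1 or replicate 2. Such a fit takes the lone Spautin-1 library to vary like the vehicle pair. A lost call there need not mean that the change rests on the library left out. The calls of MYC, MAX, HBP1, DDIT4, TXNRD1, PRDX4, SLC2A1, SLC2A13, TSG101 and STK11 held whichever library was left out. The other 15 called genes, given below with this limit, lost the call in a fit without Spautin-1 replicate 1 or replicate 2, and VPS37B, SLC11A2 and NOTCH1 also did so without vehicle replicate 2.

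**Figure D4:**
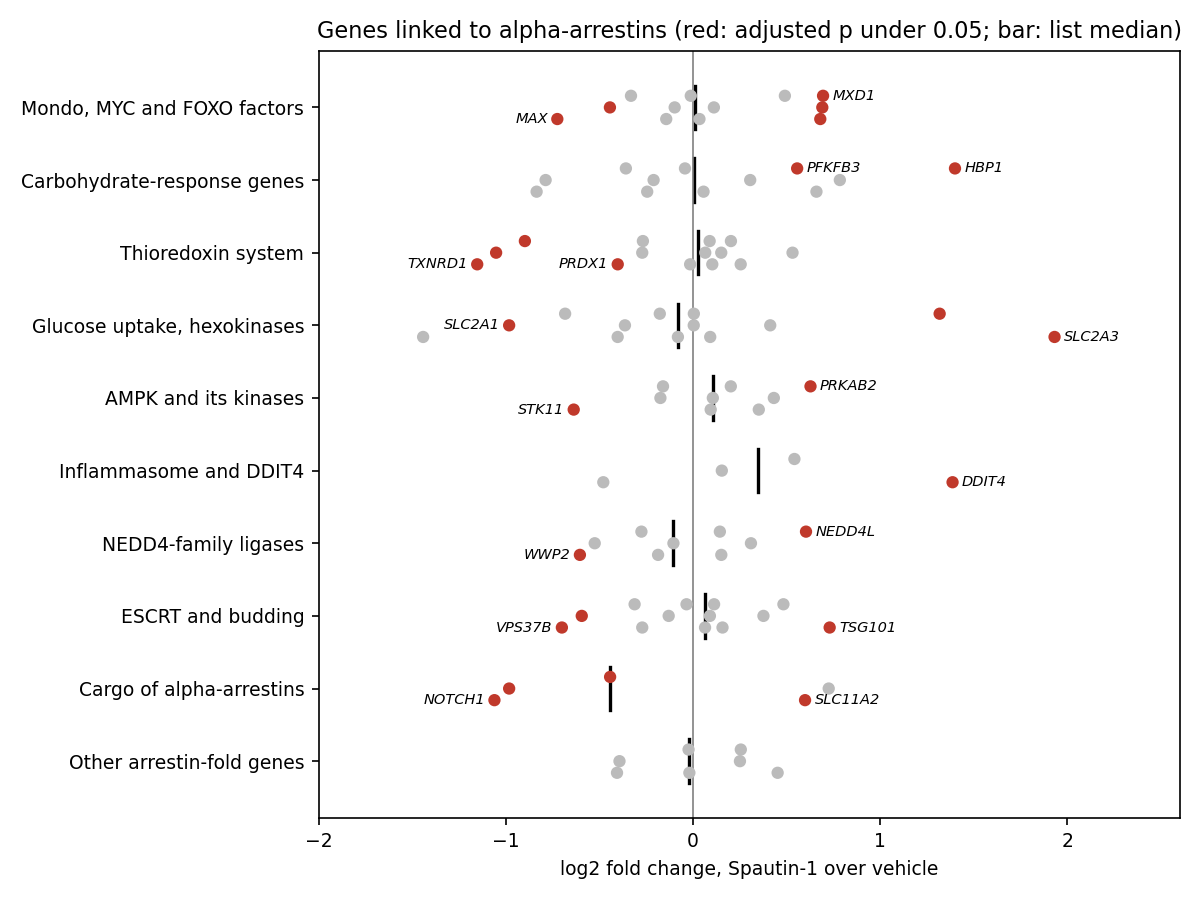
Log2 fold change of Spautin-1 over vehicle for each tested gene of the 10 lists, with red points called at adjusted p under 0.05, grey points not called, and a black bar at each list's median. The called gene at either end of each list is labelled. SLC2A3, HBP1 and DDIT4 are among the highest and TXNRD1 and NOTCH1 among the lowest called.

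Among the factors that control TXNIP transcription, the Mondo genes gave no call while the MYC network moved in both directions. MLXIP read 18.1 and 17.3 CPM in vehicle and 19.3 and 16.9 CPM in Spautin-1, with overlapping groups (log2 fold change 0.03 ± 0.15, edgeR adjusted p = 0.902; -0.0060 with library size scaling). MLX gave 0.11 ± 0.11 (edgeR adjusted p = 0.538), and MLXIPL had too few reads to be tested, at 0 CPM in 3 libraries and 0.231 CPM in Spautin-1 replicate 2. MYC, known to compete with MondoA for target sites, stood at 69.4 and 88.1 CPM in vehicle and at 125 and 129 CPM in Spautin-1 (log2 fold change 0.69 ± 0.13, edgeR adjusted p = 0.00255). Its partner MAX fell from 135 and 168 CPM to 96.8 and 86.3 CPM (log2 fold change -0.73 ± 0.13, edgeR adjusted p = 0.00178). MYC and MAX thus went opposite ways, each with groups that did not overlap. Of 12 tested genes in this list 3 rose and 2 fell, 41.7% called against 22.0% of all genes tested. The other calls were MXD1 at 0.69 and MXI1 at 0.68, which encode MAX partners that repress transcription, and MNT at -0.44 (edgeR adjusted p = 0.0414, and -0.35 and 0.111 with the GC offset). Without Spautin-1 replicate 2, 1 gene of this list was called higher and 1 lower. FOXO1, one of the forkhead factors, was at 5.35 and 3.24 CPM in vehicle and 4.91 and 3.58 CPM in Spautin-1, without a call (-0.01 ± 0.29, edgeR adjusted p = 0.982), and FOXO3 at 0.49 ± 0.24 (0.168).

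Of other genes listed as glucose-responsive, 12 were tested, 2 were higher and 0 lower, with a median log2 fold change of 0.01. That is 16.7% called, against 22.0% of all genes tested. At an unadjusted p under 0.05 in the edgeR test 4 were higher and 1 was lower. The lower gene was PNPLA3 at -0.84 ± 0.28 (edgeR adjusted p = 0.0531), named after its value was seen, and DESeq2 and limma-voom called 0 lower. PNPLA3 was called lower with the upper quartile or library size scaling, no filter, the filter of 1 CPM in 2 libraries, the GC offset and the replicate block (edgeR adjusted p = 0.0325 with the block). HBP1, a repressor linked to growth arrest whose place in this list is less certain than that of the others, read 12.8 and 11.2 CPM in vehicle and 33.2 and 30.1 CPM in Spautin-1 (log2 fold change 1.40 ± 0.15, edgeR adjusted p = 6.82e-05). PFKFB3, which makes the glycolytic activator fructose 2,6-bisphosphate, was called at 0.56 ± 0.13 (edgeR adjusted p = 0.00969). The lipogenic genes FASN at -0.25 ± 0.15, ACACA at -0.04 ± 0.13 and SCD at 0.06 ± 0.10 were not called, nor was KLF10 at 0.66 ± 0.29 (edgeR adjusted p = 0.125). ACACB at 0.78 ± 0.36 (edgeR adjusted p = 0.142) and ELOVL6 at -0.21 ± 0.18 (0.434) were not called either. Without vehicle replicate 1, 4 genes of this list were called higher and 3 lower.

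By sequence rather than by list, 20 genes had a start-site window with the paired E-box motif, and 15 of them were tested. Of the 15, 4 were called higher and 0 lower: TXNIP, GFPT1 at 0.75 (edgeR adjusted p = 0.00162), HSPBAP1 at 0.99 (0.0027) and STX12 at 0.57 (0.0498). TXNIP itself counts among the 4, and the motif was chosen after its rise was seen, so the count is not independent of TXNIP. GFPT1 encodes the enzyme that takes glucose carbon into hexosamine synthesis. The median over the 15 was 0.05, against 0.01 over 11169 tested genes with any window, of which 13.0% were called higher. Genes with a forkhead core in a window, 405 tested and including TXNIP and ARRDC3, had a median of 0.10, with 70 called higher (17.3%) and 34 lower. Of 998 tested genes with the TATA box TATAAA, 17.6% were called higher, and of 721 with the heat shock motif GAANNTTC, 16%. The cAMP response motif TGACGTCA gave 14.3%, the CCAAT box 13.6%, the GC box 12.9% and the full E-box 12.4%. A link between any motif and the changes was not tested.

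In the thioredoxin system, the redox machinery that TXNIP binds, 4 of 14 tested genes fell and 0 rose, while thioredoxin itself gave no call. TXN, the direct binding partner of TXNIP, read 21.7 and 20.5 CPM in vehicle and 21.1 and 23.7 CPM in Spautin-1 (log2 fold change 0.09 ± 0.14, edgeR adjusted p = 0.71; -0.040 with an offset for GC content). TXNRD1, the reductase that recycles thioredoxin, was at 437 and 368 CPM in vehicle and at 183 and 179 CPM in Spautin-1 (edgeR adjusted p = 2.38e-05). The peroxiredoxin gene PRDX4 fell from 74.4 and 101 CPM to 46.3 and 47.6 CPM (edgeR adjusted p = 0.00107). The remaining calls were SRXN1, which repairs oxidised peroxiredoxins, at -1.05 ± 0.25, and PRDX1 at -0.40 ± 0.12. The list's median was 0.02, and 28.6% of its tested genes were called, against 22.0% of all genes tested. With 0 genes called higher by edgeR, DESeq2 or limma-voom, 1 was higher at an unadjusted p under 0.05 in the edgeR test. Without Spautin-1 replicate 1, 2 genes of this list were called lower.

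In the glucose transporter family, SLC2A1, which encodes the TXNIP cargo GLUT1, was called lower, while SLC2A13 and SLC2A3, the latter at a low level, were called higher. SLC2A1 measured 20.8 and 34.9 CPM in vehicle and 13.4 and 14.8 CPM in Spautin-1, so both treated libraries were below both controls although the controls were far apart. Its log2 fold change was -0.98 ± 0.21 (edgeR adjusted p = 0.0062), and -0.56 without vehicle replicate 2. SLC2A13, an inositol transporter of the same family, rose from 4.69 and 5.07 CPM to 12.8 and 11.5 CPM (log2 fold change 1.32 ± 0.19, edgeR adjusted p = 0.000488). SLC2A3, which encodes the high-affinity transporter GLUT3, was called higher at 1.93 ± 0.55 (edgeR adjusted p = 0.0249) but at only 0.288 and 0.362 CPM in vehicle and 1.49 and 1.01 CPM in Spautin-1. HK1 at 0.09 ± 0.10 and HK2 at -0.36 ± 0.12, which encode the hexokinases that trap glucose in the cell, were not called (edgeR adjusted p = 0.547 and 0.0529). In all, 2 of 13 tested genes of uptake and phosphorylation rose and 1 fell, and 3 fell without vehicle replicate 2. With DESeq2, the upper quartile or library size scaling, no filter, the filter of 1 CPM in 2 libraries, the GC offset or the replicate block 2 were called lower, HK2 being the second (edgeR adjusted p = 0.0213 with the replicate block). In the main fit 23.1% of the tested genes of this list were called, near the 22.0% of all genes tested.

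DDIT4, whose product REDD1 restrains mTORC1 and forms a complex with TXNIP, rose with it, from 24.5 and 26.7 CPM in vehicle to 61.0 and 72.8 CPM in Spautin-1 (log2 fold change 1.39 ± 0.13, edgeR adjusted p = 3.39e-05). The inflammasome genes beside it in that list gave no call. NLRP3, the receptor that TXNIP is known to bind, was at 0.0577 to 0.320 CPM over the 4 libraries and was not tested, and CASP1 gave 0.15 ± 0.12 (edgeR adjusted p = 0.402). For AMPK, the kinase that marks TXNIP for degradation, 1 of 9 tested genes rose and 1 fell: PRKAB2, a regulatory subunit, at 0.63 ± 0.19, and STK11, the upstream kinase LKB1, at -0.64 ± 0.14. STK11 stood at 57.5 and 75.6 CPM in vehicle and 41.4 and 44.1 CPM in Spautin-1. In the AMPK list 22.2% of tested genes were called, near the 22.0% of all genes tested.

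Of the ubiquitin ligases that alpha-arrestins recruit, 1 of 9 tested genes of the NEDD4 family and its adaptors rose and 1 fell. That is 22.2% called, near the 22.0% of all genes tested. NEDD4L gave 0.60 ± 0.12 (edgeR adjusted p = 0.00514) and WWP2 -0.61 ± 0.14 (0.00841). ITCH, the ligase known to degrade TXNIP, overlapped between groups at 33.7 and 23.1 CPM in vehicle and 33.8 and 28.8 CPM in Spautin-1. In the ESCRT list 1 of 13 rose and 2 fell, 23.1% called and also near that share. TSG101, the partner of ARRDC1 in vesicle budding, rose from 18.2 and 19.3 CPM to 30.8 and 31.4 CPM (log2 fold change 0.73 ± 0.14, edgeR adjusted p = 0.00265), so TSG101 was called higher while ARRDC1 lay lower without a call. HGS, the ESCRT-0 subunit, gave -0.60 ± 0.13 and VPS37B -0.70 ± 0.19. Without Spautin-1 replicate 2, 0 ligase genes were called in either direction and 0 ESCRT genes lower.

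Among 7 genes for membrane proteins known as alpha-arrestin cargo, SLC2A1 included, 5 were tested, of which 3 fell and 1 rose. That is 80% of only 5 genes, against 22.0% of all genes tested. NOTCH1 gave -1.06 ± 0.31 and NOTCH2 -0.44 ± 0.13, and SLC11A2, the iron transporter DMT1, 0.60 ± 0.19 (edgeR adjusted p = 0.0291, 0.0297 and 0.0433). The SLC11A2 call was lost with DESeq2 (adjusted p = 0.0604) and with library size scaling (0.0563) as well. The other arrestin-fold genes, 7 of 8 tested, gave 0 calls in either direction by edgeR, DESeq2 or limma-voom, and 1 in each direction at an unadjusted p under 0.05 in the edgeR test, with the beta-arrestin gene ARRB2 at -0.02 ± 0.15 and the retromer gene VPS26A at -0.02 ± 0.12. Without vehicle replicate 2, 1 of them was called in each direction.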

How the data were processed

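Poly(A) RNA libraries were made with a stranded kit, per the labels' protocols. The authors deposited raw counts of reads per gene, 1 column for each of the 4 libraries, with coordinates and exonic length per the file headers. Trimmomatic 0.36, featureCounts (Subread 1.5.1), edgeR 3.12.1 and GRCh38 are named in the submitters' processing notes. The sources used here do not give the aligner, annotation release, strand setting or treatment of multi-mapped reads.

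Counts were filtered with filterByExpr (minimum count 10, minimum total 15), scaled by TMM and compared with the edgeR 4.0.16 quasi-likelihood F test in R 4.3.3, two-sided, with Benjamini-Hochberg adjustment over 18368 genes and a threshold of 0.05. The fit leaves 2 residual degrees of freedom. Standard errors were taken from the fold change and the F statistic. TPM used the deposited exonic lengths. Log2 CPM for profile distances used a prior count of 2. The procedure was tested on simulated data with 18215 genes, of which 200 were set to change. There it detected 5.97% of the genes set to change 1.5-fold, 61.2% of those set at 2-fold and 84.8% of those set at 4-fold. Wrong calls made up 4.72% of the genes called. A gene reported as not called may therefore still have changed, above all where the change is near 1.5-fold or smaller. Depth was 34115420 to 38362526 counts per library.

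The members, lists and tests were chosen with earlier results of these data known. The named genes were the 5 members, ARRDC5 and antisense genes of members; MLXIP, MLX, MYC, TXN, TXNRD1, SLC2A1, SLC2A3 and DDIT4; up to 2 called genes with the smallest p in each direction of each list; and 3 most similar profiles per member at a mean of at least 1 CPM. Chromosomal neighbours, the genes that share the paired E-box motif, the motifs, MXI1, PRDX1, SRXN1, NOTCH2 and the uncalled list genes with values were chosen after their values were seen. Alternatives were other scalings and filters, DESeq2 1.42.0, limma-voom (limma 3.58.1), a replicate block, a threshold of 0.01, leaving out each library, and, added after the data were seen, a loess offset on GC content (span 0.3; GENCODE 29 transcripts, 89.8% of genes). Reads were not analysed here.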

Additional observations from a re-analysis of the deposited data

How the results depend on the processing

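TXNIP and ARRDC3 were called higher under every alternative run; with 1 library left out, TXNIP ran from 1.16 to 1.41 and ARRDC3 from 0.91 to 1.30 (log2). ARRDC1 ran from -0.69 to -0.37 and ARRDC2 from -0.040 to 0.42, so that the number of alpha-arrestins called lower was 0 to 1. Over the same fits all called genes numbered 1847 to 5766, those higher 1067 to 2981, those lower 780 to 2785, and those in the 10 lists 12 to 35. A fit without 1 library takes the lone sample to vary like the other group. At a threshold of 0.01 the counts were 1938, 1077, 861 and 16 in that order, fewer by construction. MLXIP turned to -0.0060 with library size scaling and ran from -0.079 to 0.136 with 1 library left out, and TXN turned to -0.040 with the GC offset, which tests fewer genes; the cause was not tested. The replicate numbers are not stated to pair the samples, and deviations of same-numbered libraries correlated at -0.002 over 18368 genes and at 0.124 over those at 5 CPM or more. With the replicate block 5100 genes were called, TXNIP at 1.28 and ARRDC3 at 1.10, and of 36 single genes compared 3 changed their call, ARRDC1-AS1, HK2 and PNPLA3. The depth allowed no test of ARRDC4 and ARRDC5.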
